A study of Mus musculus with 8 samples.

Results

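The genes described here are 51 interferon-stimulated genes, a list of gene names taken as given and split into 12 type I effectors, 9 gamma-induced GTPases, 5 genes of antigen processing, 11 RNA sensors and Irf and Stat factors, and 14 further interferon-stimulated genes. *Ifi47*, *Eif2ak2* and *Zbp1* were placed in these groups by the function of their proteins. By the RefSeq transcript accession that the array files give each probe, 49 of the 51 genes were matched to 70 of the 56605 probes of the array. *Mx1* and *Mx2* had no matched probe, and no value is given for them. Of the 70 probes, 65 from 48 genes passed the filter on low signal and were among the 38886 probes tested. The 5 others were the single probe of *Oas3* and a dimmer probe each of *Oas2*, *Tap2*, *Ddx58* and *Parp9*, and *Oas3* was therefore the gene with a probe but without a test.

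RNA was taken from a quadriceps muscle of male mice aged 17 months, 3 of them Grsf1cKO and 3 WT. GRSF1 is an RNA-binding protein that acts largely in mitochondria, and the study set out to learn which transcripts accompany its loss in aged muscle. The Grsf1cKO mice descend from the Grsf1tm1a allele, from which the LacZ and Neo cassettes were removed with FLPo, and they lost the exons between the loxP sites through Myf5Cre. Whether WT mice carried a floxed allele or Cre is not given in the sources used here, and the labels name the vastus intermedius where the methods name the rectus femoris. Since *Myf5* is active in muscle precursors of the embryo, the deletion is not expected in blood-derived or endothelial cells, whose RNA is also present in whole muscle. In such RNA, fewer cells of a type and less RNA per cell cannot be told apart. Expression was measured on 8 Agilent 1-color arrays, with repeat arrays for WT 1 and Grsf1cKO 1, and each value below is a log2 signal after quantile normalization, averaged over the arrays of a mouse. A signal at this scale can be set against that of the same probe in another mouse, but not against another probe.

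The arrays themselves can be described briefly. On 7 arrays between 66.3% and 73.1% of spots were well above background, and on the repeat array of Grsf1cKO 1 it was 88.9%, and 0 spots were saturated. Slide 1 held WT 2 and the first array of WT 1, and slide 2 held the other 6 arrays. Precision is limited by the small number of arrays. *Grsf1* followed the labels on all 8 arrays, with a log2 signal in Grsf1cKO mice of 12.08 ± 0.06 and in WT mice of 14.28 ± 0.03 (SD, n = 3) and a log2 fold change of -2.19 (adjusted *p* = 0.00328 from limma with Benjamini-Hochberg adjustment, 0.250 in the blocked fit by mouse number). All 12 markers of skeletal muscle fibres were well above background.

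Interferons are cytokines, and those of type I are released when cells sense foreign or misplaced nucleic acid. Type I interferons act through a receptor whose signal reaches the interferon-stimulated response element (ISRE) in target promoters with the help of STAT2 and IRF9, while interferon gamma acts at the gamma-activated site (GAS). Most cell types, muscle fibers and macrophages among them, can respond to interferon. The effectors degrade or bind viral RNA, the GTPases attack vacuoles that hold pathogens, and the peptide transporters and immunoproteasome subunits supply antigen to MHC class I.

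The promoters of the members were searched for both elements. RefSeq promoters of GRCm38.p6, from 250 bases before to 50 bases after the transcription start, were at hand for 39 of the 51 members. The ISRE core, searched as TTTC and a further TTTC with any 2 bases between them on both strands, was found in 22 of the 39 (56.4%), and in 3.99% of the 27025 genes with a promoter in the same table. The share was 7 of 8 among the GTPases, 6 of 9 among the type I effectors, 5 of 9 among the sensors and factors, 3 of 9 among the further genes and 1 of 4 among the genes of antigen processing. GAS, searched as TTCNNNGAA, which reads the same on both strands, was found in 13 of the 39 (33.3%) against 9.55% of all genes. A match is a description of the letters and not of a bound site. The stretches below show where the matches lie in *Isg15*, *Oas1a* and *Ifit3* of the type I effectors, *Igtp* of the GTPases and *B2m* of antigen processing, with matches to the ISRE core or to GAS in capitals. *Irf7* is shown because it comes up in the results below, and its window holds neither motif, which says only that these letters are not there. Each is written 5′ to 3′ on the strand of its gene, and on that strand the ISRE core can also read GAAA, any 2 bases and GAAA.
Isg15 (chr4:156200837-156200916, minus strand): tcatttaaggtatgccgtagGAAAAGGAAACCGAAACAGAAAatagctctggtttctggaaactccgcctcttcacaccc
Oas1a (chr5:120907526-120907643, minus strand): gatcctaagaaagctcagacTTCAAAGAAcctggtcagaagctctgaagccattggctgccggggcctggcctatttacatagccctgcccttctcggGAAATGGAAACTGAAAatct
Ifit3 (chr19:34583353-34583432, plus strand): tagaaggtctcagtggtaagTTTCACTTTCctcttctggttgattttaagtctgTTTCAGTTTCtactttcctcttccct
Igtp (chr11:58199476-58199555, plus strand): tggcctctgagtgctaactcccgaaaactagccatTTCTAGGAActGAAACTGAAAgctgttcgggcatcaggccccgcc
B2m (chr2:122147528-122147607, plus strand): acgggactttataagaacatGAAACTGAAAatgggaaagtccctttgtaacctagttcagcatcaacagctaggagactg
Irf7 (chr7:141266425-141266544, minus strand): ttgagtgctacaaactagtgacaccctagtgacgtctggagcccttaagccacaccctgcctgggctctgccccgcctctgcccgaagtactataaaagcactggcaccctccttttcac
In *Isg15* the 3 matches overlap within 1 stretch of the shown window, and in *Oas1a* 2 overlapping matches of the ISRE core lie just before the start, with GAS further upstream.

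Interferon-stimulated genes lay mostly on the Grsf1cKO side, by small amounts, and none passed the adjusted test. With the brightest probe of each gene, 42 of the 48 tested genes had a log2 fold change above 0, with a median of 0.15 (0.03 without Grsf1cKO 3), while the median over all probes tested was -0.03 and 42.5% of all probes lay above 0 (53.7% when arrays were scaled to their 75th percentile). The lowest adjusted *p* among the members was 0.996 from limma with Benjamini-Hochberg adjustment. At the criteria of the study, which are a fold change over 1.5, a *p* under 0.01 and a false discovery rate under 0.2, 0 of the 65 member probes were called by limma, against 0.00771% of all probes, while a *z*-test called 1, the dimmer probe of *Irf7* (adjusted *p* = 0.0155), and 0.975% of all probes. The form of the study's *z*-test is not given in the sources used here, so it was rebuilt from group means and SDs, without the *z*-ratio and variance filters that the methods name, and its counts are not those of the study. At an unadjusted limma *p* under 0.05, 6 member probes (9.23%) were higher in Grsf1cKO mice and 0 were lower, beside 1.29% and 2.96% of all probes, and 4 of the 48 genes were higher by their brightest probe. In 10 member probes (15.4%) the lowest Grsf1cKO mouse exceeded the highest WT mouse, and in 1 probe the reverse held, beside 3.08% and 6.26% of all probes. With the 75th percentile scaling 7 member probes were higher at an unadjusted limma *p* under 0.05, beside 2.57% of all probes. With that scaling 12 were higher without overlap, beside 4.67%. Slide 2, which holds all Grsf1cKO arrays with WT 3 and the repeat of WT 1, gave 0 member probes higher at an unadjusted *p* under 0.05, beside 1.28% of all probes, and the fit with the slide as a block gave 1, beside 0.787%. On slide 2 alone 14 member probes were higher without overlap, beside 7.16% of all probes, and the median log2 fold change of the 48 genes was 0.18. With 3 mice of each genotype, the smallest *p* of an exact permutation test (2-sided) is 0.1, the value of each such gene. A fold over 1.5 with an unadjusted *p* under 0.01 was met by 1 member probe, the dimmer probe of *Irf7*, beside 0.1% of all probes higher and 0.424% lower, and this split of 39 higher and 165 lower over all probes became 96 and 26 with the 75th percentile scaling.

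The log2 fold changes were described by role group. The type I effectors had a median log2 fold change of 0.47 over 9 genes, and 5 of them were higher in Grsf1cKO mice without overlap, beside 3.08% of all probes. With the deposited *z*-scores *Isg15* alone of these 5 had no overlap. On slide 2 alone their median was 0.44. The genes of antigen processing had a median of 0.19 over 5 genes, the further interferon-stimulated genes 0.14 over 14, and the sensors and factors 0.11 over 11. The gamma-induced GTPases had a median of 0.04 over 9 genes, and 0 of them separated the genotypes. These medians are descriptions, and the differences between the role groups were not tested.

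**Figure D1:**
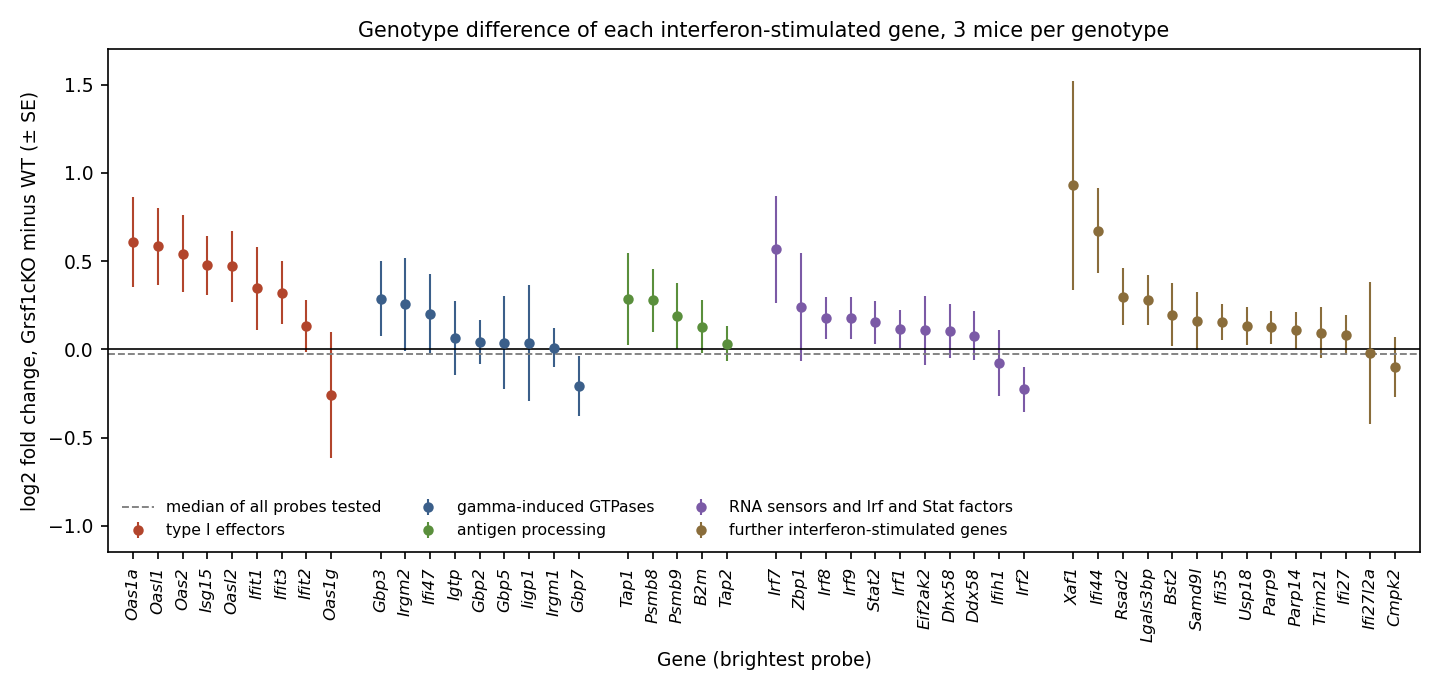
Log2 fold change of each of the 48 tested genes (vertical axis, Grsf1cKO minus WT, brightest probe, point with standard error from limma, 3 mice per genotype), ordered within role groups, with the median of all probes tested as a dashed line. In the type I effectors 8 of 9 points lie above 0, *Xaf1* has the widest error bar, and the GTPases range from -0.21 to 0.29.

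*Isg15* encodes a ubiquitin-like protein that is joined to other proteins after interferon and is also secreted. In Grsf1cKO 1, 2 and 3 its log2 signal was 10.58, 10.40 and 11.01, while WT 1, 2 and 3 had 10.17, 10.17 and 10.23. The genotypes did not overlap, and Grsf1cKO 3 stood furthest above the WT mice, which lay within 0.06 of each other. The log2 fold change was 0.48 (standard error 0.166, 1.39-fold), with an unadjusted *p* of 0.0287 from limma.

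The 2′-5′-oligoadenylate synthetases make the short adenylate chains that switch on RNase L, which cleaves RNA. *Oas1a* read 9.01, 9.11 and 9.95 in Grsf1cKO mice and 8.73, 8.81 and 8.70 in WT mice, both in the order 1, 2 and 3 used throughout, a log2 fold change of 0.61 (standard error 0.256, 1.52-fold, unadjusted *p* = 0.0552 from limma). *Oas2* had 9.90, 10.01 and 10.66 in Grsf1cKO mice and 9.51, 9.65 and 9.78 in WT mice, a log2 fold change of 0.54 (standard error 0.218, 1.46-fold, unadjusted *p* = 0.0473 from limma). In both genes the Grsf1cKO mice lay above the WT mice without overlap, and in both Grsf1cKO 3 was the highest.

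OASL proteins resemble these synthetases, and *Oasl1* encodes a member known to hold back translation of *Irf7*. *Oasl1* read 8.41, 7.89 and 8.76 in Grsf1cKO mice and 7.83, 7.70 and 7.78 in WT mice, a log2 fold change of 0.58 (standard error 0.219, unadjusted *p* = 0.0374 from limma). Grsf1cKO 2 exceeded WT 1 only narrowly, and the dimmer probe of the gene, with a log2 fold change of 0.53, had overlap between the genotypes. *Oasl2* had 9.74, 9.93 and 10.50 in Grsf1cKO mice and 9.55, 9.63 and 9.58 in WT mice, a log2 fold change of 0.47 (standard error 0.202, unadjusted *p* = 0.0584 from limma). Here too all Grsf1cKO mice were above all WT mice.

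The IFIT proteins bind viral RNA at its 5′ end. The log2 fold change was 0.35 for *Ifit1*, 0.32 for *Ifit3* and 0.13 for *Ifit2*, with overlap between the genotypes in each. Without Grsf1cKO 3 the values were 0.09, 0.28 and -0.01. *Ifit3* was highest in Grsf1cKO 2, at 11.37, while Grsf1cKO 1, at 10.79, was below WT 1 and WT 3. *Oas1g*, a close paralog of *Oas1a*, was the exception to the direction, at -0.26, and its dim probe was well above background on 6 of the 8 arrays. Its log2 fold change was -0.03 with the 75th percentile scaling, -0.03 with normexp and 0.07 on slide 2 alone. Cross-hybridization between such paralogs was not tested. The probe of *Oas3* was well above background on 2 arrays, both of Grsf1cKO mice. Its mean signal in Grsf1cKO mice, 4.13, was below the bound of 4.39 that the WT arrays set, so no fold is given.

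**Figure D2:**
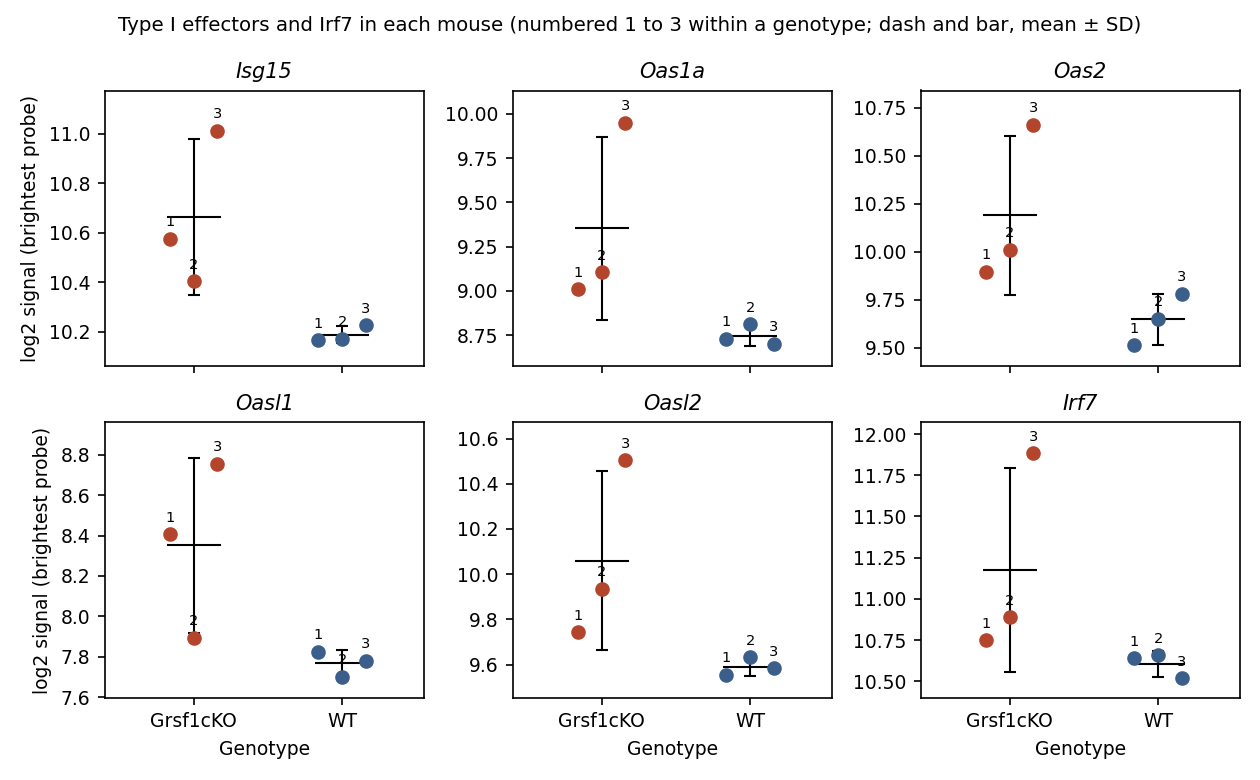
Log2 signal of the brightest probe (vertical axis, scaled for each gene) of *Isg15*, *Oas1a*, *Oas2*, *Oasl1*, *Oasl2* and *Irf7* in each mouse, numbered within its genotype, with mean and SD of 3 mice. In all 6 panels the 3 Grsf1cKO mice lie above the 3 WT mice, and Grsf1cKO 3 is the highest.

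Among the transcription factors, *Irf7*, the factor that amplifies type I interferon and is itself induced by it, stood apart from its relatives. Its brightest probe read 10.75, 10.89 and 11.88 in Grsf1cKO mice and 10.64, 10.66 and 10.52 in WT mice, a log2 fold change of 0.57 (standard error 0.303, 1.48-fold, unadjusted *p* = 0.110 from limma). Its dimmer probe read 6.54, 6.55 and 7.02 in Grsf1cKO mice and 6.11, 6.0 and 6.17 in WT mice, a log2 fold change of 0.61 (standard error 0.155, 1.53-fold, unadjusted *p* = 0.00773 and adjusted *p* = 0.996 from limma). Neither probe had overlap between the genotypes, but the brightest did with the *z*-scores. The dimmer probe depended on the background correction, since its value was 0.29 with normexp.

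The other factors differed by less. *Irf8*, known from macrophages and dendritic cells, *Irf9* and *Stat2*, the partners in the type I complex, and *Irf1*, a target of interferon gamma, had log2 fold changes between 0.11 and 0.18 with overlap between the genotypes. Dimmer probes gave 0.34 for *Irf1*, 0.57 for *Stat2* and 0.12 for *Irf9*, also with overlap. The repeat array of Grsf1cKO 1 read higher than the first on the dimmer probes of *Irf1*, at 8.58 against 6.72, and *Stat2*, at 8.38 against 6.21. On the first arrays alone their log2 fold changes were 0.03 and 0.27, and the genotypes of *Stat2* then did not overlap (unadjusted *p* = 0.0408 from limma). *Irf2*, which can compete with IRF1 at promoters, was the only member lower in every Grsf1cKO mouse. It read 10.77, 10.67 and 10.74 in Grsf1cKO mice and 11.19, 10.90 and 10.78 in WT mice, a log2 fold change of -0.23 (standard error 0.127, unadjusted *p* = 0.127 from limma). The gap between Grsf1cKO 1 and WT 3 was small, and on the first arrays alone the genotypes of *Irf2* overlapped. Without WT 1 its log2 fold change was -0.11.

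The sensors of double-stranded RNA showed little difference. *Ddx58*, which encodes RIG-I, had a log2 fold change of 0.08, *Ifih1*, which encodes MDA5, had -0.08, *Dhx58*, which encodes the regulator LGP2, had 0.10, and *Eif2ak2*, which encodes the kinase PKR, had 0.11. *Zbp1*, a sensor of Z-form nucleic acid, gave different readings with its probes. The brightest read 7.02, 7.42 and 8.22 in Grsf1cKO mice and 7.41, 7.40 and 7.13 in WT mice, with overlap and a log2 fold change of 0.24, which was -0.10 without Grsf1cKO 3. The dimmer read 6.18, 5.97 and 6.66 in Grsf1cKO mice and 5.90, 5.63 and 5.72 in WT mice, without overlap, a log2 fold change of 0.52 (standard error 0.194, unadjusted *p* = 0.0371 from limma). On the first arrays alone the genotypes overlapped for this probe, since Grsf1cKO 1 then read 5.81 and WT 1 read 5.83. Its log2 fold change was 0.32 with normexp and 0.32 without Grsf1cKO 3.

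The gamma-induced GTPases differed between the mice more than between the genotypes. *Gbp3*, a guanylate-binding protein, had the largest value of its group, with log2 signals of 9.95, 9.90 and 10.65 in Grsf1cKO mice and 9.92, 9.79 and 9.93 in WT mice, a log2 fold change of 0.29 (standard error 0.213, unadjusted *p* = 0.228 from limma). Only Grsf1cKO 3 was clearly above the WT mice. *Iigp1*, an immunity-related GTPase, read 10.57, 10.37 and 11.61 in Grsf1cKO mice and 10.92, 10.66 and 10.86 in WT mice. Grsf1cKO 3 was the highest mouse and the other Grsf1cKO mice were the lowest, so the log2 fold change was 0.04 with all mice and -0.34 without Grsf1cKO 3 (unadjusted *p* = 0.0470 and adjusted *p* = 0.900 from limma). *Gbp7* was the member of the group below 0, at -0.21, and the 3 probes of *Irgm1* lay between 0.01 and 0.06. Without Grsf1cKO 3 the value of *Gbp7* was -0.34, with both remaining Grsf1cKO mice below all WT mice.

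The genes of antigen processing were likewise highest in Grsf1cKO 3. *Tap1*, 1 chain of the transporter that carries peptides to MHC class I, read 9.19, 9.03 and 9.99 in Grsf1cKO mice and 9.11, 9.26 and 8.98 in WT mice, a log2 fold change of 0.29 (standard error 0.261, unadjusted *p* = 0.316 from limma). The immunoproteasome subunits *Psmb8* and *Psmb9* had 0.28 and 0.19, *B2m*, the light chain of MHC class I, had 0.13, and *Tap2* had 0.03. In all 5 genes Grsf1cKO 3 was the highest mouse and the genotypes overlapped. Without Grsf1cKO 3 the value of *Tap1* was -0.01. A dimmer probe of *Tap1* had -0.12, and 0.13 on the first arrays alone. Without Grsf1cKO 3 this probe had -0.58, with both remaining Grsf1cKO mice below all WT mice.

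Among the further interferon-stimulated genes, *Ifi44* had the lowest *p*. It read 7.02, 6.65 and 7.35 in Grsf1cKO mice and 6.69, 6.04 and 6.26 in WT mice, with overlap between Grsf1cKO 2 and WT 1, and a log2 fold change of 0.67 (standard error 0.240, 1.59-fold, unadjusted *p* = 0.0311 from limma). The arrays of Grsf1cKO 1 disagreed for this gene, with 6.19 on the first and 7.85 on the repeat, and on the first arrays alone the log2 fold change was 0.41 (unadjusted *p* = 0.235 from limma). *Ifi35*, which encodes a protein that binds other interferon-induced proteins, read 13.08, 13.09 and 13.07 in Grsf1cKO mice and 13.07, 12.94 and 12.77 in WT mice, a log2 fold change of 0.15. A dimmer probe of *Ifi35* had 0.05 with overlap. *Lgals3bp*, which encodes a secreted galectin ligand, read 12.99, 12.95 and 13.25 in Grsf1cKO mice and 12.93, 12.86 and 12.56 in WT mice, a log2 fold change of 0.28 (standard error 0.140, unadjusted *p* = 0.0952 from limma). Neither of these brightest probes had overlap, but the range among WT mice, 0.30 for *Ifi35* and 0.37 for *Lgals3bp*, was wider than the difference between the genotype means, and WT 3 was the lowest mouse in both. With the 75th percentile scaling and with the *z*-scores the genotypes of both genes overlapped.

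The antiviral enzymes *Rsad2*, which encodes viperin, and *Cmpk2* had log2 fold changes of 0.30 and -0.10 with overlap. A dimmer probe of *Rsad2* had -0.17, which was 0.20 on the first arrays alone and -0.55 with repeat arrays in their place. Without Grsf1cKO 3 this probe had -0.59. *Usp18*, which removes ISG15 from proteins, had 0.13, *Bst2*, the tethering factor tetherin, had 0.20 and -0.002 without Grsf1cKO 3, and *Parp9*, *Parp14*, *Trim21* and *Samd9l* had between 0.10 and 0.16. *Ifi27* had 0.08. *Ifi27l2a*, which encodes a small interferon-induced protein, read 14.67, 14.79 and 14.78 in Grsf1cKO mice and 15.38, 15.10 and 13.82 in WT mice. Its WT mice thus lay on both sides of the Grsf1cKO mice, and the log2 fold change was -0.02. A dimmer probe of *Ifi27l2a*, well above background on 5 arrays, had -0.27 with overlap, and -0.01 with normexp.

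*Xaf1*, known as an interferon-induced antagonist of inhibitors of apoptosis, gave opposite readings with its probes, which carry the same accession. The brightest read 8.85, 9.61 and 9.93 in Grsf1cKO mice and 7.35, 8.68 and 9.56 in WT mice, a log2 fold change of 0.93 (standard error 0.591, unadjusted *p* = 0.167 from limma). The other read 10.07, 6.23 and 5.90 in Grsf1cKO mice and 11.01, 10.05 and 6.31 in WT mice, a log2 fold change of -1.72 (standard error 1.60, unadjusted *p* = 0.324 from limma). The order of the 6 mice was nearly reversed between the probes. The repeat array of Grsf1cKO 1 read 8.69 on the brightest probe and 10.03 on the other, and that of WT 1 read 7.35 and 11.01, so that repeats gave the same picture. The mice with a high reading on the second probe, Grsf1cKO 1, WT 1 and WT 2, came from both genotypes. The mean over both probes was -0.40, so *Xaf1* has no settled direction here.

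**Figure D3:**
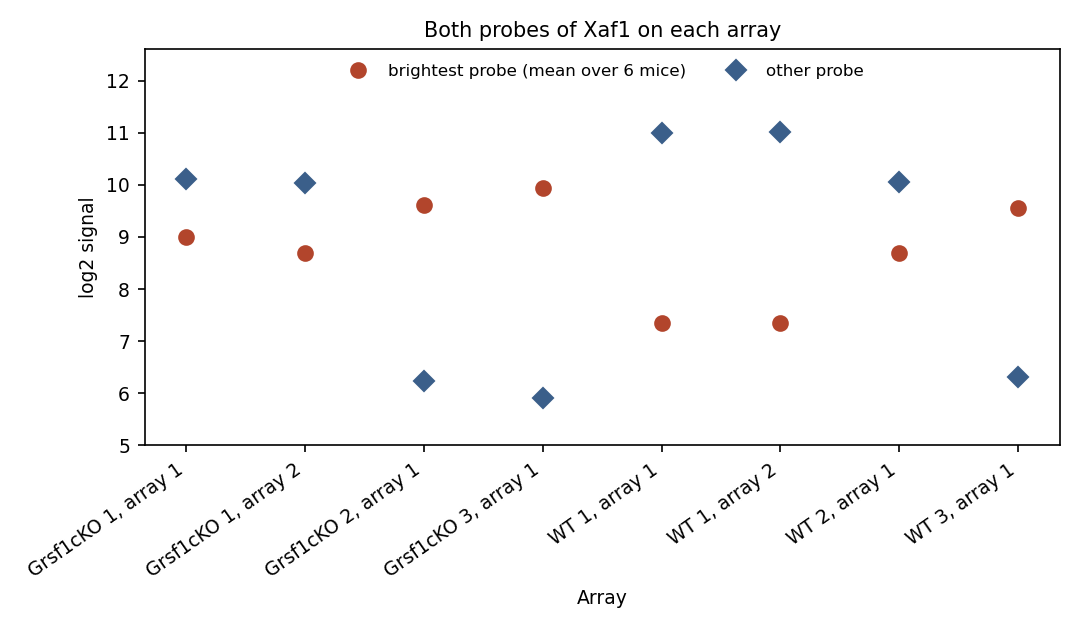
Log2 signal (vertical axis) of both *Xaf1* probes on each of the 8 arrays (horizontal axis), circles for the brightest probe over all mice and diamonds for the other. The diamonds fall into high readings on the arrays of Grsf1cKO 1, WT 1 and WT 2 and low readings on those of Grsf1cKO 2, Grsf1cKO 3 and WT 3, where the circles are high.

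Much of what the members share is the order of the mice. Grsf1cKO 3 was the highest of the 6 mice in 39 of the 48 tested member genes, while it was the highest in 16.3% of all probes with a value in every mouse. It was highest in 7 of 9 type I effectors, 8 of 9 GTPases, 5 of 5 genes of antigen processing, 8 of 11 sensors and factors and 11 of 14 further genes, and it was the lowest in 0 members. At the other end WT 3 was the lowest mouse in 23 of the 48 genes, beside 13.7% of all probes. The median SD within a genotype was 0.24 for the members and 0.18 for all probes tested, and the range among Grsf1cKO mice was wider than that among WT mice in 35 of 48 members and in 49.0% of all probes. *Irf7* had a range of 1.14 among Grsf1cKO and 0.14 among WT mice.

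**Figure D4:**
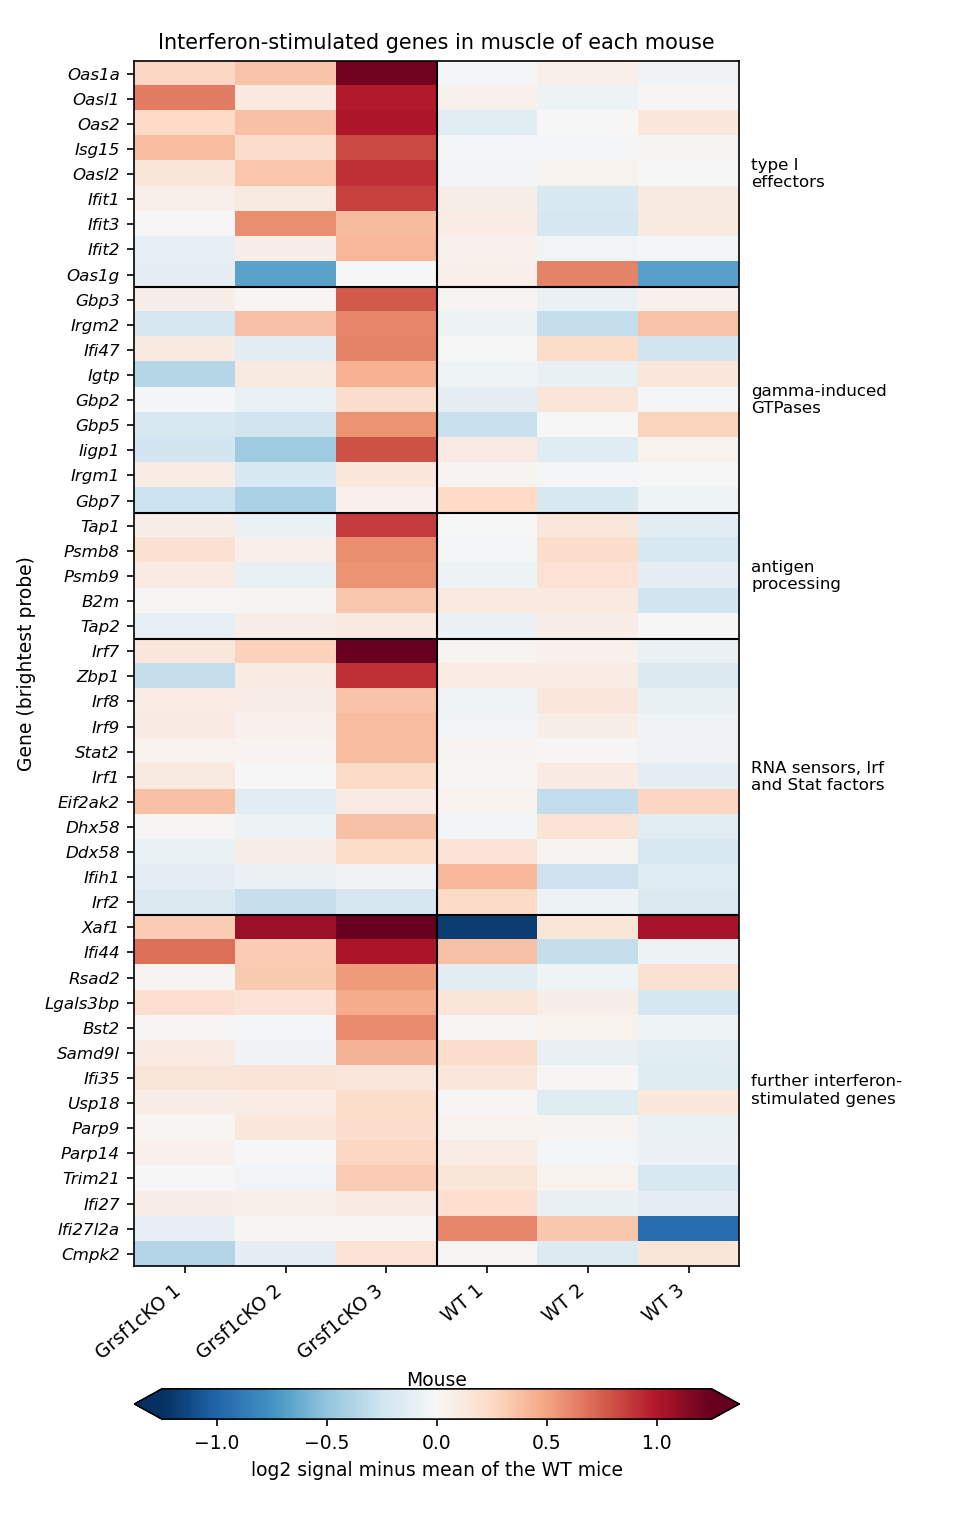
Log2 signal of each tested gene (rows, brightest probe, by role group) in each mouse (columns) minus the mean of the 3 WT mice (color scale, with values beyond its ends at the end colors). The column of Grsf1cKO 3 is the highest in 39 of 48 rows, and *Isg15*, *Oas1a*, *Oas2*, *Oasl1* and *Oasl2* are above 0 in all 3 Grsf1cKO mice.

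Averaged over the type I effectors, the remaining Grsf1cKO mice also lay above the WT mice. The mean deviation from the WT mean over the 9 type I effectors was 0.17, 0.17 and 0.73 in Grsf1cKO 1, 2 and 3, and between -0.04 and 0.02 in WT mice. Over the 9 GTPases it was -0.11, -0.11 and 0.47 in Grsf1cKO mice and between -0.05 and 0.06 in WT mice. Over the 14 further genes it was 0.09, 0.15 and 0.42 in Grsf1cKO mice and between -0.04 and 0.05 in WT mice. Over all 48 members it was 0.05, 0.06 and 0.48, and between -0.04 and 0.03 in WT mice. By these means all 3 Grsf1cKO mice were above the WT mice for the effectors, the further genes and all members. In the other role groups only Grsf1cKO 3 was. For the further genes and all members this order rested on the brightest probe of *Xaf1*, a gene without a settled direction. This probe was lowest in WT 1, at 7.35. Without it the mean of WT 1 lies above those of Grsf1cKO 1 and 2 in both sets. However, 4 of the 9 effectors, the *Ifit* genes and *Oas1g*, had overlap between the genotypes, and only 2 of the 14 further genes were higher without overlap. Without Grsf1cKO 3, the median log2 fold change was 0.28 for the type I effectors, -0.05 for the GTPases, 0.01 for antigen processing, 0.04 for the sensors and factors and 0.08 for the further genes, and 29 genes lay above 0. Of the 42 genes above 0 with all mice, 13 were then below 0, 22 were above 0 but smaller by over 1.5 times, and 7 were not. Without this mouse the log2 fold change was 0.30 for *Isg15*, 0.31 for *Oas1a*, 0.31 for *Oas2*, 0.38 for *Oasl1*, 0.25 for *Oasl2* and 0.21 for the brightest probe of *Irf7*. At an unadjusted limma *p* under 0.05, 3 probes (*Isg15*, *Oas1a* and the dimmer probe of *Irf7*) were then higher, beside 1.67% of all probes, and 1 (*Iigp1*) was lower, beside 3.81%. The genotypes were then separate upward for 10 member probes, beside 6.94% of all probes, and downward for 4, beside 11.9%.

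Leukocyte and macrophage markers were also highest in this mouse. Of 12 markers of leukocytes and macrophages, 11 were highest in Grsf1cKO 3, and their mean deviation from the WT mean was -0.03, -0.07 and 0.95 in Grsf1cKO 1, 2 and 3, with a range of -0.14 to 0.17 among WT mice. *Cd68*, a lysosomal protein of macrophages, read 11.80, 11.96 and 13.30 in Grsf1cKO mice and 11.65, 11.85 and 11.57 in WT mice, and *Ptprc*, which encodes CD45, read 9.04, 9.04 and 10.38 in Grsf1cKO mice and 9.12, 9.42 and 8.79 in WT mice. All 12 were well above background, and 11 of 12 had a log2 fold change above 0 with a median of 0.24. In Grsf1cKO 1 and 2, in which the mean over the type I effectors was also above that of the WT mice, the leukocyte and macrophage markers had means within the range of the WT mice. Markers of T, B and NK cells had 0.10, -0.42 and 0.31 in Grsf1cKO mice and -0.09 to 0.17 in WT mice, with 3 of 12 highest in Grsf1cKO 3. Markers of dendritic cells had -0.20, 0.01 and 0.61 in Grsf1cKO mice and -0.09 to 0.12 in WT mice, over 7 genes. Among these is *Bst2*, itself a member of the interferon-stimulated genes. Markers of fibro-adipogenic progenitors had -0.02, 0.07 and 0.36 in Grsf1cKO mice and -0.13 to 0.15 in WT mice, over 7 genes. They include *Ly6a*, which is also among the interferon-stimulated genes outside the list that are described below. Markers of endothelium had -0.06 in each Grsf1cKO mouse and -0.04 to 0.06 in WT mice, over 8 genes, so that the means of all Grsf1cKO mice were below those of the WT mice. Grsf1cKO 3 had -0.31 for markers of adipocytes and -0.27 for those of red blood cells, within the WT ranges of -0.62 to 0.37 and -0.54 to 0.39. WT 3, the lowest mouse in 23 of the members, was also the lowest in 4 of 5 adipocyte and 4 of 4 red blood cell markers. For skeletal muscle fibres they ranged from -0.09 to 0.12 in Grsf1cKO and from -0.16 to 0.09 in WT mice. The part of these cells in the values of the interferon-stimulated genes was not tested.

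**Figure D5:**
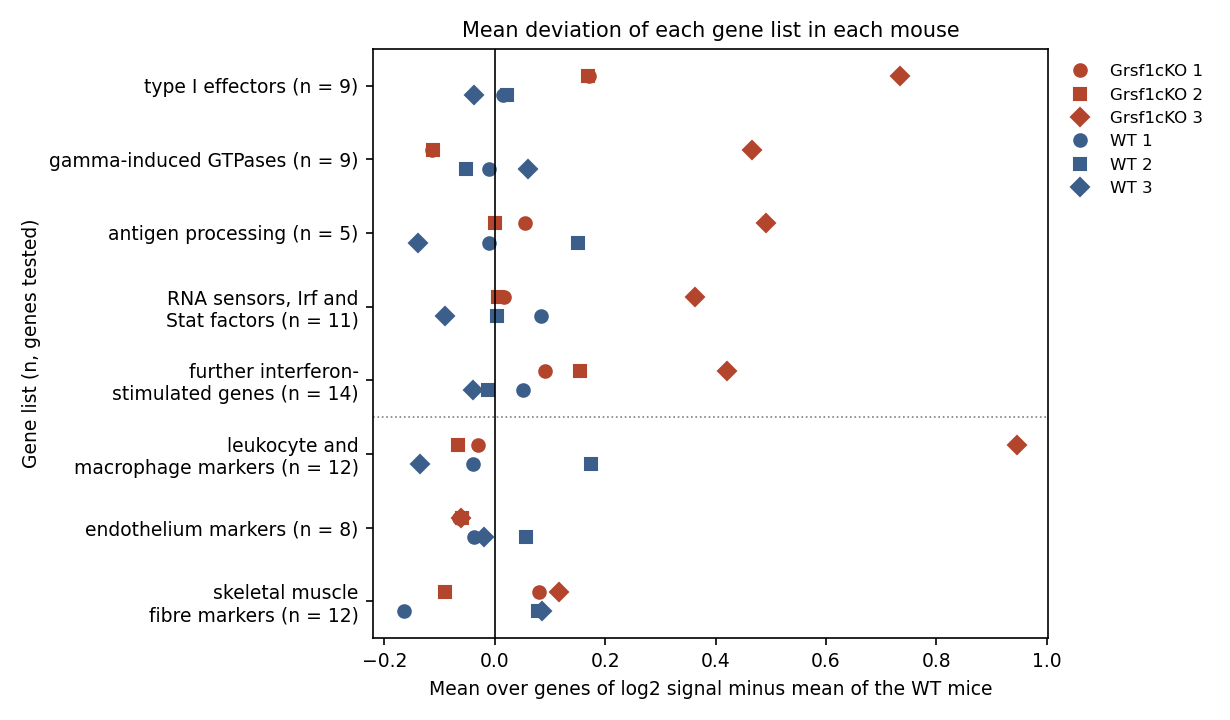
Mean deviation of the log2 signal from the mean of the WT mice (horizontal axis) over the tested genes of each list (rows, brightest probe), 1 symbol per mouse. Grsf1cKO 3 lies to the right in all 5 role groups and in the leukocyte and macrophage markers, at 0.95. Grsf1cKO 1 and 2 lie right of the WT mice for the type I effectors, at 0.17. The same holds for the further interferon-stimulated genes, at 0.09 and 0.15, but there it rests on the brightest probe of *Xaf1*.

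The genes that act before these in the pathway were described from lists of ligands, receptors and sensors. Of 18 interferon genes 15 had a probe and 8 could be tested, 3 of them above 0, with a median log2 fold change of -0.02. *Ifnb1*, which encodes interferon beta, was well above background on 1 array, and *Ifng*, which encodes interferon gamma, on 4 of 8. Of 17 genes for receptors and signal transducers 7 were above 0, with a median of -0.07, among them the receptor chains *Ifnar1* at -0.08, *Ifnar2* at 0.21, *Ifngr1* at -0.08 and *Ifngr2* at 0.07. Of 21 genes for sensing of nucleic acid and induction of interferon 16 were above 0, with a median of 0.05. In these 3 lists 0 genes had an unadjusted limma *p* under 0.05, beside 1.29% of all probes higher and 2.96% lower. Genotypes without overlap were found for 1 receptor or transducer gene, lower, and 1 sensing gene, higher, beside 6.26% and 3.08% of all probes.

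Other interferon-stimulated genes outside the list were also examined. Of 54 tested, 38 lay above 0, with a median log2 fold change of 0.09, and 3 had an unadjusted limma *p* under 0.05, all higher in Grsf1cKO mice, beside 1.29% of all probes. The genotypes did not overlap for 3, higher, and 1, lower, beside 3.08% and 6.26% of all probes. *Cxcl10*, a chemokine that draws T cells and is induced by interferon, read 10.05, 8.94 and 11.08 in Grsf1cKO mice and 8.16, 8.32 and 8.22 in WT mice, a log2 fold change of 1.79 (unadjusted *p* = 0.0129 and adjusted *p* = 0.996 from limma). The others were *Apol9b* at 0.68 and *Slfn8* at 0.60. *Cxcl9*, a chemokine known for its response to interferon gamma, had a log2 fold change of -0.10. Grsf1cKO 3 was the highest mouse in 34 of the 54 genes.

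Some of the members that separated the genotypes lie on the chromosome of *Grsf1*. RefSeq lists *Oas1a*, *Oas1g*, *Oas2*, *Oasl1* and *Oasl2* on chromosome 5, as it does *Grsf1*, and 4 of these 5 separated the genotypes upward, with a median log2 fold change of 0.54. Among the 43 members on other chromosomes 4 separated them upward, with a median of 0.13. The genes on chromosome 5 belong to 2 gene families of type I effectors, so role and position cannot be told apart for them. Of all tested probes with a gene name, 3.94% of 1496 on chromosome 5 and 3.34% of 23349 elsewhere separated the genotypes upward.

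The members were also divided by whether the promoter holds the ISRE core. Of 21 tested genes whose promoter holds it, 2 (*Isg15* and *Oas1a*) separated them upward, with a median log2 fold change of 0.11. Of 17 whose promoter does not, 5 did, with a median of 0.20, and 3.08% of all probes did. The difference was not tested, and a promoter window without the letters says nothing of a site elsewhere.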

How the data were processed

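Muscle RNA from 3 Grsf1cKO and 3 WT mice was analyzed, and the mouse was the replicate. The authors deposited, per array, spot intensities on a linear scale from Agilent Feature Extraction 12.0.3.1, corrected for background by that software but not normalized between arrays, with the other columns per the file headers being its flags. The authors further deposited a table of scores (*z*-scores), which was recomputed here within 0.005 as the log2 signal of each array centered on its mean and divided by its SD. The array annotation follows mm9.

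Control spots were dropped, and spots marked as outliers by the software counted as missing. After quantile normalization of the 8 arrays, the mean log2 signal was taken over a probe's spots and then over a mouse's arrays. A probe had to be well above background in 3 or more of the 6 mice to enter limma 3.58.1 (R 4.3.3), with genotype alone in the model and Benjamini-Hochberg adjustment over all 38886 probes tested. Where a gene had several probes, the brightest over the 6 mice stands for it. Groups without overlap were also compared by a 2-sided exact permutation test. The labels do not say whether mice shared litters or days.

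Values in every mouse are given for members whose genotypes did not overlap, with an unadjusted limma *p* under 0.05, or with the largest difference of their group. They are also given for some other genes, in and outside the list, chosen after their values were seen. Accessions were named through a RefSeq table of GRCm38.p6, from which promoters also came. The members, lists and motifs were chosen with earlier results of these data known. The scripts were tested on simulated data. Alternatives covered normalization, background correction, filters, repeat arrays, slides, the replicate number as a block, a *z*-test rebuilt from the methods and leaving out each mouse. Python 3.11.15, pandas 2.3.3 and matplotlib 3.10.9 were used for summaries and plots.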

Additional observations from a re-analysis of the deposited data

How the results depend on the processing

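Of the alternatives, the choice of test moved the calls most: at the criteria of the study the *z*-test, as rebuilt here, called 379 of all probes and 1 member probe, where limma called 3 and 0, and limma with the replicate number as a block called 1 and 0, with *Grsf1* lost at an adjusted *p* of 0.250 and the same log2 fold change of -2.19. Member probes higher at an unadjusted *p* under 0.05, 6 in the report, numbered 2 with the deposited *z*-scores (0.895% of all probes), 1 with the slide as a block (0.787%) and 0 on slide 2 alone (1.28%), and ranged from 1 to 8 with each mouse left out, beside 1.03% to 1.97% of all probes (1 without WT 2, 2 without WT 3, 3 without WT 1 and 3 without Grsf1cKO 3). Such probes lower in Grsf1cKO mice, 0 in the report beside 2.96% of all probes, ranged from 0 to 1 (1 without Grsf1cKO 3, beside 3.81%, and 1 without WT 3). Counted by gene, 4 in the report, there were 7 with normexp (1.31% of all probes), 1 with the *z*-scores, 1 with the slide as a block and 0 on slide 2 alone, with 0 to 7 when a mouse was left out (7 without Grsf1cKO 1, 2 without Grsf1cKO 3, 1 without WT 1, 0 without WT 2 and 1 without WT 3). Member probes higher without overlap, 10 in the report, numbered 3 with the *z*-scores, beside 1.98% of all probes, and 10 to 21 with a mouse left out, beside 5.97% to 7.99%, since overlap is less likely with fewer mice. Those lower numbered 1 in the report, beside 6.26% of all probes. They numbered 0 with normexp, 2 with no detection filter, 0 on the first arrays and 1 to 4 with a mouse left out (4 without Grsf1cKO 3, beside 11.9% of all probes). The cause of these shifts was not tested, apart from the fewer mice.

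Genes above 0 numbered from 29, without Grsf1cKO 3, to 42, and the median of the type I effectors stayed between 0.28 and 0.53. The median of the GTPases went from 0.04 to -0.05 without Grsf1cKO 3, to 0.18 without Grsf1cKO 1 and to 0.18 without Grsf1cKO 2. The log2 fold changes of *Isg15*, *Oas1a*, *Oas2*, *Oasl1*, *Oasl2* and *Irf7* stayed above 0 under every alternative run, with the lowest values without Grsf1cKO 3, between 0.21 for *Irf7* and 0.38 for *Oasl1*. The numbers of the mice were not taken as pairs, because the correlation of same-numbered mice was 0.23, 0.10 and 0.10 and no label ties them, though each mouse correlated best with its own number. In the fit with the replicate block, 9 member probes were higher at an unadjusted *p* under 0.05, beside 2.26% of all probes, and the lowest adjusted *p* of a member was 0.752.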
